A study of Sus scrofa with 16 samples.

Results

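Cells read interleukin-6 and interleukin-1 through receptors that end in a small set of transcription factors, and the 10 genes described here follow that path from the cell surface to the nucleus. IL6R, OSMR and LIFR are receptor chains for interleukin-6, oncostatin M and leukaemia inhibitory factor, and all 3 cytokines need IL6ST, the shared signal-transducing chain, which activates the transcription factor STAT3 through Janus kinases. SOCS3 is a STAT3 target that shuts the receptor complex off, CEBPB and CEBPD are transcription factors of the acute-phase response that STAT3 and interleukin-1 signals induce, and IL1R1 and IL1RAP are the receptor and co-receptor of interleukin-1. In brain, astrocytes, microglia and endothelial cells are known to respond through these receptors during systemic inflammation. The genes were chosen by name for their place in the pathway, with earlier results of these data known. Of the 10, 7 were found among the 22815 distinct entries of the deposited expression table. STAT3, IL6ST, OSMR, LIFR, IL1R1 and IL1RAP were found by gene identifier. CEBPD (ENSSSCG00000006276) carried no symbol. It was matched because 1 entry only had the group means the study printed for it among its differing genes (relative gap 9.4e-07). CEBPB, SOCS3 and IL6R were not found by name and were not analysed here.

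The measurements came from the left hippocampus of 16 preterm pigs delivered by cesarean section, fed human donor milk with parenteral nutrition for 8 days and then examined for necrotizing enterocolitis (NEC), a necrotizing disease of the preterm gut. No pig was given NEC by an added agent: the groups were formed from the gut lesions found at the end. The No NEC group held 5 pigs without visible gut lesions (2 female and 3 male), the Co-NEC group held 5 pigs with severe lesions in the colon only (2 female and 3 male), and the Si-NEC group held 6 pigs with severe lesions of the small intestine, whether or not the colon was affected (3 female and 3 male). Each value is 1 pig's FPKM, fragments per kilobase of gene and library size, made by the authors with their Tophat-Cufflinks pipeline.

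Entries averaging 0.5 FPKM or more were tested, 13590 in all, and all 7 genes were among them. No read counts were given, so the depth behind each value is unknown. FPKM sums ran from 544629 to 864931 per pig, and pigs 230-15 (No NEC) and 223-15 (Si-NEC) had the 2 highest. These 2 pigs were also the least like the others over all entries tested. Their median correlations with the other pigs were 0.9025 and 0.933, against 0.949 or more for the rest. Some genes of neurons and astrocytes stood high in every pig. SLC17A7, the vesicular glutamate transporter of excitatory neurons, was at 490.3 FPKM or more, and GFAP, the astrocyte filament, at 438.5 or more. Others did not: the neuron marker PROX1 ran from 4.92 to 10.3 FPKM, and the astrocyte marker ALDH1L1 was listed at 0 in every pig. In whole tissue, fewer cells of a type and less RNA per cell cannot be told apart.

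With all pigs at equal weight, no member passed an adjusted p of 0.2 in limma in any of the 3 comparisons. The study used the same threshold with another test, Cuffdiff, and there listed CEBPD as differing between Si-NEC and Co-NEC pigs. CEBPD came closest to the threshold: in Si-NEC pigs its mean was 1.67 times that of Co-NEC pigs and 1.45 times that of No NEC pigs. The Si-NEC mean of OSMR was 1.69 times that of No NEC, with a wider spread between pigs. The other receptor genes and STAT3 had smaller ratios between group means. For every member the ranges of the groups overlapped in each comparison. The 3 comparisons share pigs pairwise and are not independent of each other.

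**Figure D1:**
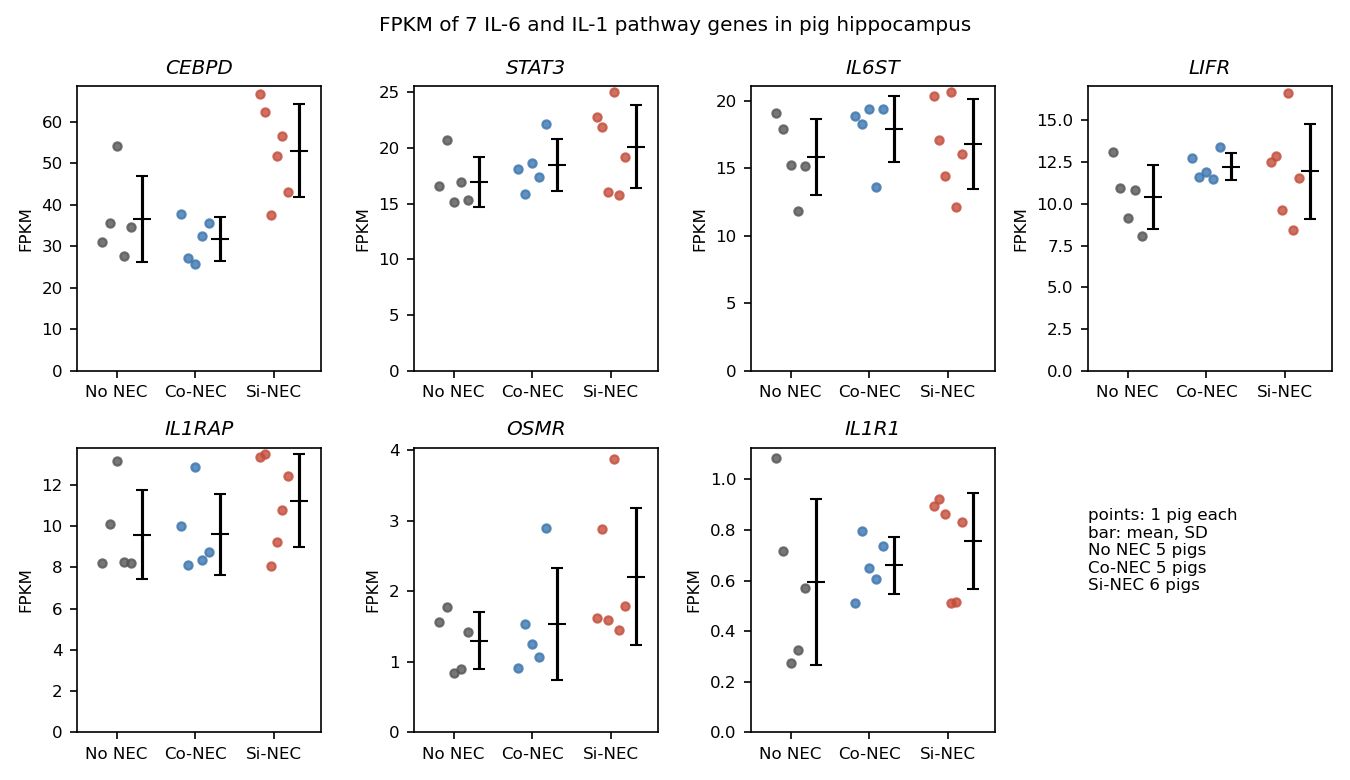
FPKM (linear axes from 0) of the 7 genes found, 1 panel per gene and 1 point per pig, with bars for the mean and SD of the 5 No NEC, 5 Co-NEC and 6 Si-NEC pigs. CEBPD in Si-NEC pigs lay between 37.6 and 66.5 FPKM, mostly above the other groups, while the other genes overlapped widely.

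The order of the levels was the same in all 3 groups. CEBPD was the most abundant at 41.2 ± 13.03 FPKM (SD, n = 16), above 85.2% of the entries tested, and its range did not meet that of the next gene. STAT3 (18.6 ± 3.06 FPKM) and IL6ST (16.8 ± 2.84 FPKM) came next and were not separated, since STAT3 was above IL6ST in 11 of 16 pigs. LIFR (11.5 ± 2.13 FPKM) and IL1RAP (10.21 ± 2.15 FPKM) were not separated either, with LIFR higher in 9 of 16 pigs. IL6ST was above LIFR in all 16 pigs. OSMR (1.71 ± 0.830 FPKM) and IL1R1 (0.675 ± 0.222 FPKM) were far lower, IL1R1 being above only 2.41% of the entries tested. The receptor of interleukin-1 was thus measured near the lower limit of the filter, whereas its co-receptor IL1RAP stood near the middle of all entries.

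CEBPD encodes C/EBP delta, a transcription factor induced early in inflammation. In the No NEC pigs it measured 31.1, 35.6, 54.1, 27.6 and 34.7 FPKM. In the Co-NEC pigs it measured 37.8, 27.1, 25.6, 32.4 and 35.7 FPKM. In the 6 Si-NEC pigs the lowest value was 37.6, the median 54.2 and the highest 66.5 FPKM. Of the 6 Si-NEC pigs, 5 lay above every Co-NEC pig and the sixth, 547-14, lay just under the highest Co-NEC pig. Only 3 of the 6 lay above every No NEC pig, because No NEC pig 230-15 stood at 54.1 FPKM, well above the other 4 of its group.

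Between Si-NEC and Co-NEC pigs CEBPD differed by 0.72 ± 0.16 (SE) on the log2(FPKM + 0.5) scale, with a limma p of 0.000704 and an adjusted p of 0.767, and the exact permutation test, whose smallest possible p is 0.00216, gave p = 0.00649. The adjusted p missed 0.2 with all pigs, but it was 0.184 without Si-NEC pig 547-14 (log2 difference 0.81) and 0.190 with pigs weighted by limma (0.62), a setting in which the entries past 0.2 went from 2 to 201. Over all the alternatives it ran from 0.184 to 1. Against No NEC the difference was 0.54 ± 0.19 (SE), with a limma p of 0.0161, an adjusted p of 1 and an exact permutation p of 0.0325. Leaving out pig 230-15 raised that difference to 0.69. Co-NEC against No NEC gave a log2 difference of -0.18 ± 0.18 (SE), which moved to -0.03 without pig 230-15. CEBPD is in a table of genes that the study picked on these same pigs, so its values here are not independent evidence, and the locus printed for it there is much longer than the gene, so the FPKM may cover more than CEBPD.

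The pigs carry number suffixes of 15 or 14, whose meaning the labels do not give, and all females have the suffix 15. Within suffix 15 the mean of CEBPD was 56.0 FPKM in 4 Si-NEC, 35.3 in 3 Co-NEC and 39.1 in 3 No NEC pigs. Within suffix 14 it was 47.1, 26.4 and 32.9 FPKM in 2 pigs each. The Si-NEC mean was thus the highest in both sets. By sex, the log2 difference between Si-NEC and No NEC was 0.92 in females and 0.21 in males, but the difference between the sexes (-0.71 ± 0.35, SE) had an adjusted p of 0.439 in limma's interaction test.

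Markers of neutrophils and monocytes moved with the Si-NEC group. Of the 8 found, 6 had their highest mean in Si-NEC pigs, and the summed level of the list was 12.6 to 68.1 FPKM there, 11.3 to 14.5 in Co-NEC and 10.24 to 19.6 in No NEC pigs. S100A8 and S100A9, calcium-binding proteins of neutrophils, made most of the difference, with means of 12.5 and 13.9 FPKM in Si-NEC against 1.74 and 1.32 in No NEC pigs. Both S100 genes are, like CEBPD, in tables that the study picked on these same pigs, and S100A9 was named only through them. Their values here are thus not independent evidence. CSF3R was listed at 0 in every pig, and MMP8 and MMP9 reached at most 0.442 and 0.395 FPKM. The 3 pigs with the highest sums were 246-15, 224-15 and 223-15, of which 223-15 and 224-15 had the 2 highest CEBPD values and 246-15 the highest OSMR value. Pig 223-15 also had the highest astrocyte and microglia sums of all pigs, 1528 and 119.6 FPKM. No NEC pig 230-15, at 54.1 FPKM of CEBPD, had a microglia sum of 105.2 FPKM. Si-NEC pig 539-14 had 56.5 FPKM of CEBPD. Its sums were 20.5 FPKM for neutrophils and monocytes, 892 for astrocytes and 41.9 for microglia. The part of any of these lists in the CEBPD and OSMR values was not tested. The summed levels of all 10 marker lists, the neutrophil and monocyte list included, overlapped between the 3 groups.

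OSMR, the oncostatin M receptor chain, measured 1.57, 1.77, 0.847, 0.902 and 1.42 FPKM in the No NEC pigs. In the Co-NEC pigs it measured 0.919, 1.53, 1.25, 1.07 and 2.89 FPKM. In the Si-NEC pigs the lowest, median and highest values were 1.45, 1.70 and 3.88 FPKM. In Si-NEC 2 pigs stood apart, 246-15 and 224-15, while the other 4 lay between 1.45 and 1.79 FPKM, in or just over the No NEC range. The log2 difference of Si-NEC from No NEC was 0.55 ± 0.24 (SE), with a limma p of 0.0417, an adjusted p of 1 and an exact permutation p of 0.0714. Leaving out 1 pig at a time moved the limma p between 0.0285 and 0.0985. The difference was 0.84 within suffix 15 but 0.02 within suffix 14, where 2 Si-NEC pigs averaged 1.52 and 2 No NEC pigs 1.49 FPKM. Co-NEC pig 231-15, at 2.89 FPKM, was level with the second highest Si-NEC pig. Si-NEC against Co-NEC gave 0.42 ± 0.27 (SE), with an exact permutation p of 0.180.

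STAT3, the transcription factor at the end of the IL6ST pathway, measured 16.6, 20.7, 15.2, 16.96 and 15.3 FPKM in No NEC pigs and 18.1, 15.8, 18.7, 17.4 and 22.1 FPKM in Co-NEC pigs. The lowest, median and highest Si-NEC values were 15.8, 20.5 and 25.03 FPKM. The ranges overlapped almost wholly at the low end, and 3 of 6 Si-NEC pigs lay above every No NEC pig. The log2 difference of Si-NEC from No NEC was 0.23 ± 0.14 (SE), with an exact permutation p of 0.136. It was 0.33 within suffix 15 and 0.00 within suffix 14. Co-NEC against No NEC gave 0.12 ± 0.12 (SE).

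The shared chain IL6ST differed least of all between Si-NEC and No NEC, by 0.07 ± 0.16 (SE) on the log2 scale. Its means were 16.8 ± 3.32 FPKM in Si-NEC (SD, n = 6), 17.9 ± 2.45 in Co-NEC (n = 5) and 15.8 ± 2.80 in No NEC pigs (n = 5). LIFR, the leukaemia inhibitory factor receptor, measured 13.1, 10.9, 9.12, 10.8 and 8.04 FPKM in No NEC pigs and 12.7, 11.6, 11.9, 11.5 and 13.4 FPKM in Co-NEC pigs. The Co-NEC pigs were close together, all between 11.5 and 13.4 FPKM, and only 1 No NEC pig reached that range. The log2 difference was 0.24 ± 0.13 (SE), with a limma p of 0.0928, an adjusted p of 0.812 and an exact permutation p of 0.0873. Leaving out 1 pig at a time moved the difference between 0.15 (without No NEC pig 550-14, unadjusted limma p 0.231) and 0.32 (without No NEC pig 540-14, unadjusted limma p 0.0217). In Si-NEC pigs LIFR was more spread, from 8.46 to 16.6 FPKM, and its log2 difference from No NEC was 0.18 ± 0.18 (SE), or 0.08 without pig 246-15.

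The interleukin-1 receptor IL1R1 measured 0.272 to 1.08 FPKM in No NEC, 0.512 to 0.794 in Co-NEC and 0.511 to 0.923 in Si-NEC pigs. Both the lowest and the highest of the 16 values were in No NEC pigs, and the log2 difference of Si-NEC from No NEC was 0.24 ± 0.20 (SE). It was 0.12 without No NEC pig 230-15, the lowest of all, 0.38 without No NEC pig 540-14, the highest, and -0.14 within suffix 14. At these levels the pseudocount of 0.5 is close to the value itself, so the log2 difference understates the ratio of means, 1.27. Its co-receptor IL1RAP ranged from 8.22 to 13.2 FPKM in No NEC, 8.12 to 12.9 in Co-NEC and 8.05 to 13.5 in Si-NEC pigs. The 3 ranges nearly coincided, and the log2 difference of Si-NEC was 0.22 ± 0.17 (SE) from No NEC and 0.21 ± 0.16 (SE) from Co-NEC.

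**Figure D2:**
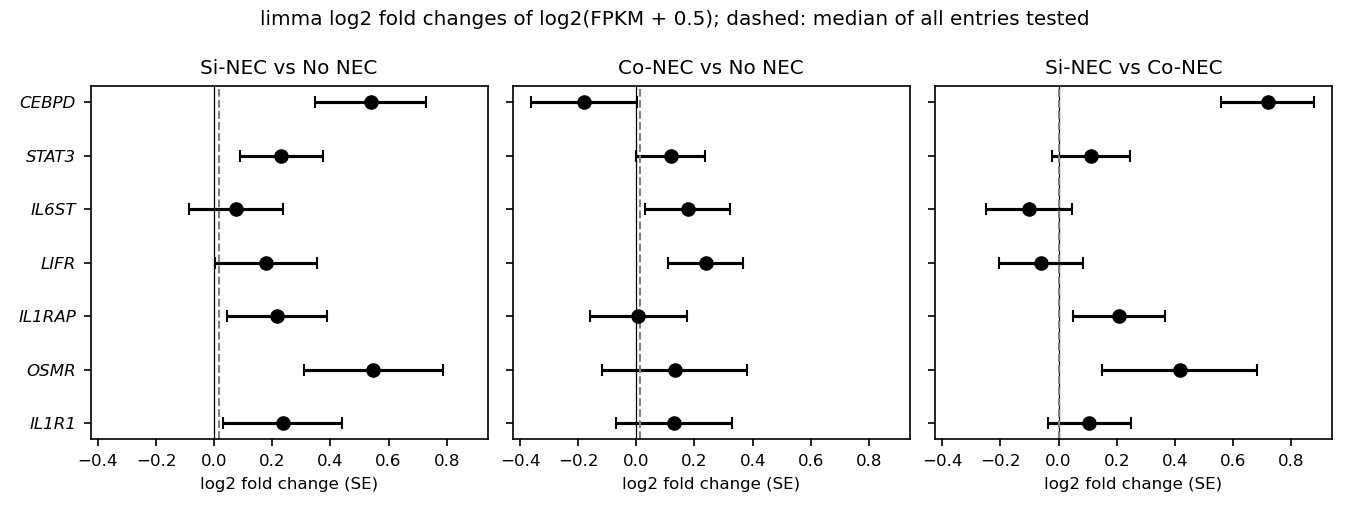
limma log2 fold change of log2(FPKM + 0.5) with its standard error for the 7 genes in the 3 comparisons; the dashed line is the median of all 13590 entries. In Si-NEC against No NEC all 7 genes lie above 0, from 0.07 (IL6ST) to 0.55 (OSMR), and in Si-NEC against Co-NEC CEBPD stands apart at 0.72.

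Counted over all 7 members, Si-NEC against No NEC had 0 past the adjusted p of 0.2, where 0.00736% of all entries passed, and 2 with an unadjusted limma p under 0.05 (CEBPD and OSMR), where 2.61% of all entries did. All 7 had a higher mean in Si-NEC pigs, against 53.8% of all entries, and their median log2 fold change was 0.23, against 0.02 over all entries. The ranges of the 2 groups overlapped for every member, and were apart for 0.155% of all entries. Without pigs 223-15 and 230-15, CEBPD alone kept an unadjusted limma p under 0.05. CEBPD could be named only because the study had listed it as differing on these pigs. It therefore adds no independent support, here or in the counts of members that follow. All members were chosen with earlier results of these data known, so these counts describe the pigs and do not test a gene set fixed beforehand.

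Co-NEC against No NEC had 0 members past the adjusted p of 0.2 (0.00736% of all entries) and 0 with an unadjusted limma p under 0.05 (3.44% of all entries). The mean of 6 of 7 members was higher in Co-NEC pigs, CEBPD being the exception, against 52.0% of all entries. The median log2 fold change was 0.13, against 0.01 over all entries, and no member's ranges were apart (0.464% of all entries).

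Si-NEC against Co-NEC had 0 members past the adjusted p of 0.2 (0.0147% of all entries) and 1, CEBPD, with an unadjusted limma p under 0.05 (5.64% of all entries). Here 5 of 7 members had the higher mean in Si-NEC pigs, with IL6ST and LIFR lower, against 50.1% of all entries. The median was 0.11, against 0.00 over all entries, and no ranges were apart (0.545% of all entries).

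**Figure D3:**
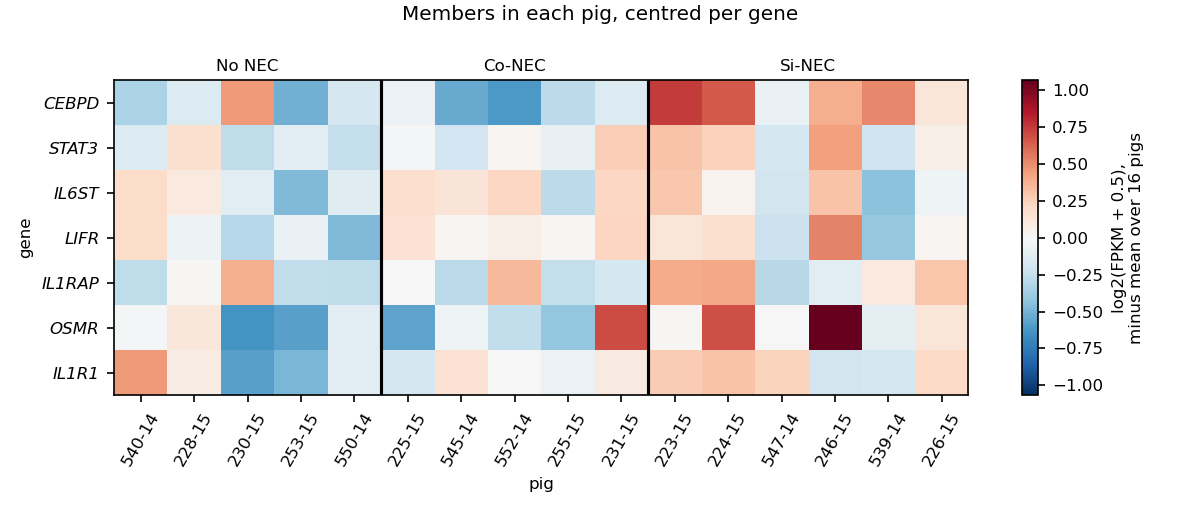
log2(FPKM + 0.5) of each gene in each pig, minus the gene's mean over the 16 pigs (red higher, blue lower), with pigs ordered by group. Si-NEC pigs 223-15, 224-15 and 246-15 were high in most genes, whereas Si-NEC pigs 547-14 and 539-14 were low in STAT3, IL6ST and LIFR.

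The Si-NEC pigs did not move together. Taking the median of the 7 centred log2 values in each pig, 246-15, 224-15 and 223-15 were the highest of all 16 pigs (0.39, 0.30 and 0.28), while 539-14 and 547-14 were at -0.18 and -0.19, within the range of the No NEC pigs (-0.47 to 0.08). The 3 high pigs were female with suffix 15 and the 2 low ones male with suffix 14, so that sex and suffix cannot be told apart among these 5, and the male with suffix 15, pig 226-15, was at 0.12. In Co-NEC, pig 231-15 stood highest at 0.22. CEBPD did not follow this split: it was at 56.5 FPKM in pig 539-14, the third highest of all pigs.

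Among the 21 pairs of members, 20 had a positive Pearson r over the 16 pigs (median 0.35), and 3 pairs had an adjusted permutation p under 0.05 by both r and rho. STAT3 and LIFR had r = 0.78 (permutation p = 0.00025, adjusted 0.00525) and rho = 0.75 (permutation p = 0.00113, adjusted 0.0119). IL6ST and LIFR had r = 0.71 (permutation p = 0.00201, adjusted 0.0141) and rho = 0.82 (permutation p = 0.00018, adjusted 0.00378). For STAT3 and OSMR r was 0.74 (permutation p = 0.00092, adjusted 0.00966) and rho 0.70 (permutation p = 0.00361, adjusted 0.0253). After dropping, for each pair, the 2 pigs farthest from the first gene's median, r was 0.69, 0.72 and 0.68, and with group means removed it was 0.79, 0.69 and 0.68.

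These pairs were thus the receptors and STAT3, and they varied together within groups as well as across them. Within the 10 pigs of suffix 15 and the 6 of suffix 14, r was 0.85 and 0.62 for STAT3 and LIFR, and 0.65 and 0.87 for IL6ST and LIFR. For STAT3 and OSMR it was 0.89 and -0.66, so that this relation did not hold in the suffix 14 pigs. CEBPD was not part of this group, with r between 0.01 and 0.38 to every member except IL1RAP. With IL1RAP it had r = 0.61 (permutation p = 0.0148, adjusted 0.0622), which was 0.40 without Si-NEC pigs 223-15 and 224-15 and 0.83 and 0.03 within suffixes 15 and 14.

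**Figure D4:**
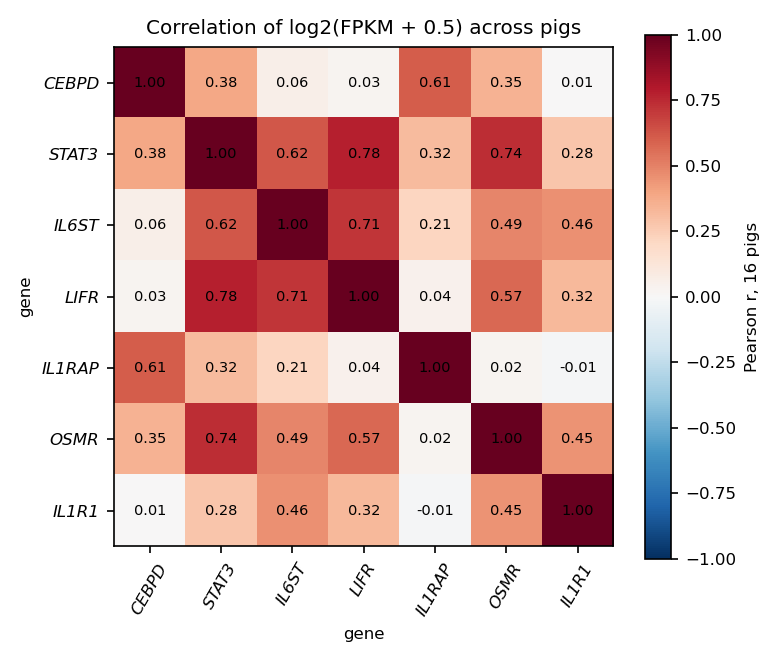
Pearson r of log2(FPKM + 0.5) over the 16 pigs for each pair of the 7 genes, printed in each square. STAT3, IL6ST and LIFR form a block of r from 0.62 to 0.78, while CEBPD has r of at most 0.38 with STAT3, OSMR, IL6ST, LIFR and IL1R1.

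Over the 8746 other named entries tested, the 5 whose log2 values followed CEBPD most closely across the 16 pigs were RGS2 (r = 0.89), GPX3 (0.88), ZFAT (0.83), S100A11 (0.82) and TNIP1 (0.82). RGS2 is a regulator of G protein signalling, GPX3 a secreted glutathione peroxidase, S100A11 a calcium-binding protein and TNIP1 an inhibitor of NF-kB signalling. RGS2 averaged 26.5 FPKM in Si-NEC, 16.7 in Co-NEC and 19.1 in No NEC pigs, and GPX3 averaged 11.3, 6.29 and 8.23 FPKM in the same order. RGS2, GPX3 and S100A11 are, like CEBPD, in tables that the study picked on these pigs.

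The other genes of the pathway were counted by role from 6 lists of 89 genes, of which 57 were found and 46 tested. With all pigs at equal weight none passed the adjusted p of 0.2 in any comparison. In Si-NEC against No NEC, 2 of 46 had an unadjusted limma p under 0.05, both higher in Si-NEC, where 2.61% of all entries did, and the median log2 fold change was 0.06, against 0.02 over all entries. In Co-NEC against No NEC, 2 were higher and 2 lower, where 3.44% of all entries had such a p, with a median of 0.00. In Si-NEC against Co-NEC, 4 were higher and 1 lower, where 5.64% of all entries had such a p, with a median of 0.07.

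Of the ligands and antagonists, 4 of 16 could be tested. IL6 itself was listed at 0 FPKM in all 16 pigs, and IL1A, an interleukin-1 ligand, was listed at 0 in 5 pigs and was highest in Si-NEC pig 246-15, at 0.936 FPKM. CTF1, cardiotrophin-1, a cytokine that signals through IL6ST and LIFR, averaged 1.46 ± 0.454 FPKM in Si-NEC and 0.864 ± 0.184 in No NEC pigs. This was a log2 difference of 0.50 ± 0.18 (SE), with a limma p of 0.0177, an adjusted p of 1 and an exact permutation p of 0.0173, and 5 of 6 Si-NEC pigs lay above every No NEC pig.

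Among the 3 other receptor chains tested, SIGIRR, a receptor that restrains interleukin-1 signalling, averaged 2.49 ± 0.173 FPKM in Co-NEC and 4.13 ± 1.94 in No NEC pigs. All 5 Co-NEC pigs lay below every No NEC pig, with a limma p of 0.0254 and an adjusted p of 0.812. The exact permutation p was 0.00794, the smallest that this design can give. SIGIRR was the only 1 of the 46 tested list genes with ranges apart in this comparison, as were 0.464% of all entries. No NEC pig 230-15 stood at 7.59 FPKM and the other 4 between 2.98 and 3.47, and without it the log2 difference moved from -0.55 to -0.33. SIGIRR averaged 3.26 ± 0.692 FPKM in Si-NEC pigs, 0.31 ± 0.13 (SE) above Co-NEC on the log2 scale (limma p = 0.0370, adjusted p = 0.867, exact permutation p = 0.0325).

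Of the 13 kinases and adaptors, JAK2, a kinase bound to IL6ST, averaged 2.59 FPKM in Co-NEC and 2.02 in No NEC pigs, and PTPN11, the phosphatase SHP2 that docks on IL6ST, averaged 34.6 FPKM in Si-NEC pigs and 41.6 in Co-NEC. Their limma p were 0.0409 and 0.0337, with adjusted p of 0.812 and 0.867. Of the 6 inhibitors, PIAS1, from a family that inhibits activated STAT proteins, averaged 11.7 FPKM in Co-NEC and 9.56 in No NEC pigs (limma p = 0.0436, adjusted p = 0.812, exact permutation p = 0.0476).

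Of the 9 transcription factors, STAT5A averaged 14.0 FPKM in Si-NEC and 11.6 in No NEC pigs (limma p = 0.0499, adjusted p = 1, exact permutation p = 0.0260). Without No NEC pig 230-15 its log2 difference went from 0.27 to 0.17 and the limma p to 0.113. JUNB, an AP-1 subunit and immediate early gene, averaged 24.6 FPKM in Si-NEC pigs and 19.5 in Co-NEC (limma p = 0.0302, adjusted p = 0.867, exact permutation p = 0.0346). BCL3, an NF-kB cofactor, averaged 1.55 and 0.691 FPKM in the same 2 groups (limma p = 0.0323, adjusted p = 0.867, exact permutation p = 0.0519). The Si-NEC mean was the higher for 8 of the 9 factors against No NEC (53.8% of all entries), with a median log2 fold change of 0.06, and for 8 of the 9 against Co-NEC (50.1% of all entries), with a median of 0.16.

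The acute-phase and STAT3 target list had 11 of 26 genes tested, and for 10 of these the Si-NEC mean exceeded that of No NEC, as it did for 53.8% of all entries, with a median log2 fold change of 0.16 against 0.02 over all entries, none with an unadjusted limma p under 0.05. TIMP1, a metalloproteinase inhibitor induced in reactive astrocytes, averaged 14.9 ± 5.24 FPKM in Si-NEC pigs and 8.79 ± 2.06 in Co-NEC (limma p = 0.0116, adjusted p = 0.851, exact permutation p = 0.0325). CD14, the lipopolysaccharide co-receptor, averaged 7.72 ± 1.31 FPKM in Co-NEC and 10.5 ± 1.497 in No NEC pigs (limma p = 0.0110, adjusted p = 0.812, exact permutation p = 0.0159), and 12.6 ± 7.15 in Si-NEC pigs, where it ran from 4.64 to 25.4 FPKM. CD14 is, like CEBPD, in tables that the study picked on these pigs. CRP, the classical plasma acute-phase protein, reached at most 0.151 FPKM.

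**Figure D5:**
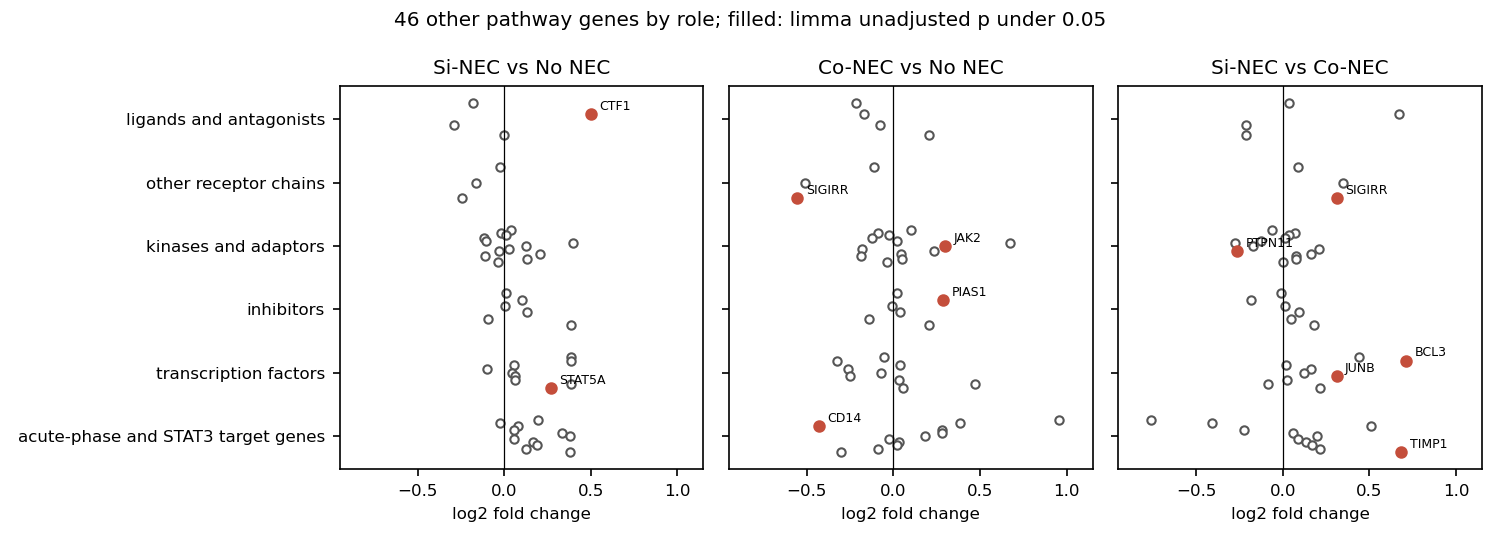
limma log2 fold change of the 46 other pathway genes by role in the 3 comparisons, 1 point per gene, filled and named where the unadjusted p was under 0.05. The points lie on both sides of 0 in most lists, and 10 of 11 acute-phase and STAT3 target genes lie above 0 in Si-NEC against No NEC, as do 53.8% of all entries.

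No interaction of group with sex passed the adjusted p of 0.2 for a member, and 1, for IL6ST between the 2 NEC groups, had an unadjusted p under 0.05. The smallest adjusted p of limma's interaction over the members was 0.439 between Si-NEC and No NEC, 0.926 between Co-NEC and No NEC, and 0.484 between the 2 NEC groups.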

How the data were processed

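RNA was sequenced from the hippocampus of 16 pigs. The authors aligned reads to Sscrofa10.2 with TopHat2 2.1.1 and deposited FPKM values per gene and pig from Cufflinks 2.2.1; any scaling between pigs is not given in the sources used here. Values below 0.1 FPKM kept no whole-read steps (at most 10.7% shared one ratio to a reference pig), so depth is unknown. The 1779 entries identical to another were dropped. Names came from a gene ID table. CEBPD and the marker S100A9 were joined through the group means printed in the study's tables of differing genes. Each pair of groups was fitted with limma 3.58.1 (R 4.3.3; lmFit, eBayes with trend) on log2(FPKM + 0.5), without covariates, adjusted by Benjamini-Hochberg over 13590 entries and tested on simulated data. Single genes also had two-sided exact permutation tests, and correlations 100000 permutations with adjustment over 21 pairs (Python 3.11.15, numpy 2.4.6, pandas 2.3.3, scipy 1.17.1, matplotlib 3.10.9). The members and lists were chosen with earlier results of these data known. Named were all members, at most 4 genes per list and comparison with an unadjusted p under 0.05, and the 5 entries most like CEBPD; the same could not be given for SOCS3. IL6, IL1A, CRP and the markers named fall outside that rule and were chosen after their values were seen. Alternatives were pseudocounts, filters, rescaling, covariates, robust fits, array weights and leaving out pigs. Litter was not analysed here, and the p-values treat the pigs as independent, which littermates may not be.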

Additional observations from a re-analysis of the deposited data

Results flagged for a closer look

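IL6ST in Co-NEC pig 255-15, at 13.6 FPKM, lay far below the other 4 pigs of its group, the next of which was at 18.3 FPKM. It was the only one of 21 groups (7 genes in 3 groups of pigs) with such a gap, and chance gives about 1 in 20.

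For 4 results, every female of one group lay on one side of the other group's female mean and every male on the opposite side of the male mean. IL6ST differed by 0.39 in females and -0.21 in males between Si-NEC and No NEC (male minus female -0.60, limma interaction adjusted p = 0.439). Between Si-NEC and Co-NEC IL6ST differed by 0.24 and -0.40 (-0.64, unadjusted p = 0.0192, adjusted p = 0.484). LIFR differed by 0.16 and -0.29 between Si-NEC and Co-NEC (-0.44, adjusted p = 0.495), and CEBPD by 0.12 and -0.38 between Co-NEC and No NEC (-0.49, adjusted p = 0.926). None passed the adjusted p of 0.2.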

How the results depend on the processing

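Of 494 single-gene values under the alternatives, 473 kept their direction and their side of the adjusted p of 0.2, 19 changed sign and 2 passed the threshold, both of CEBPD between Si-NEC and Co-NEC. One member passed there with array weights (1) and without pig 547-14 (range 0 to 1 over pigs left out). Members with an unadjusted p under 0.05 numbered 1 in Si-NEC against No NEC with the suffix as a covariate and without pigs 223-15 and 230-15 (1 to 2 over pigs left out), 1 in Co-NEC against No NEC with array weights (0 to 1) and 1 to 2 in Si-NEC against Co-NEC. Entries past 0.2 in Si-NEC against Co-NEC, 2 in all, were 201 with array weights and 1 with a pseudocount of 0.1, no filter, 1 fit of all groups, sex or suffix as a covariate, without pigs 223-15 and 230-15, or at 0.05, and 1 to 12 over pigs left out. In Si-NEC against No NEC they were 2 with the suffix, 4 with array weights and 1 to 3 over pigs left out, and in Co-NEC against No NEC 4 with no filter and 1 to 2. Within suffix 14 the sign turned for IL6ST (-0.35), LIFR (-0.18) and IL1R1 (-0.14) in Si-NEC against No NEC, for OSMR (-0.081) and IL1R1 (-0.094) in Co-NEC against No NEC, and for STAT3 (-0.11), IL1R1 (-0.050) and IL1RAP (-0.13) in Si-NEC against Co-NEC. Within suffix 15 it turned for IL1RAP in Co-NEC against No NEC (-0.19) and for IL6ST (0.11) and LIFR (0.081) in Si-NEC against Co-NEC. Over pigs left out, IL6ST ran from -0.022 to 0.16 in Si-NEC against No NEC, OSMR from -0.072 to 0.24 and IL1RAP from -0.10 to 0.12 in Co-NEC against No NEC, and LIFR from -0.16 to 0.028 in Si-NEC against Co-NEC. These sets held fewer pigs and no further cause was tested. The counts of members and entries above leave out the fits within a suffix, where they can differ. Within suffix 14, Si-NEC against Co-NEC gave 0.80 for CEBPD, -0.49 for IL6ST and -0.36 for LIFR, with 2 pigs in each group. The median of the members was 0.23 in Si-NEC against No NEC and 0.11 in Si-NEC against Co-NEC. Within suffix 14 it was 0.00 and -0.11, so it did not hold there. IL1R1 has no value at a minimum mean of 1 FPKM, and no member had several entries to sum. No paired analysis was possible because the labels give the groups no shared replicate numbers.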
